A study of Mus musculus with 20 samples.

Results

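Collagen chains are the proteins that build the fibres and sheets of the extracellular matrix, and their transcripts were followed here in the hearts of 20 male mice. Every gene of the deposited expression table whose symbol reads Col, a number, a, a number was taken, which gave 42 genes of 25851. Of these, 11 encode fibrillar chains, 9 FACIT chains (fibril-associated collagens with interrupted triple helices), 6 basement membrane chains, 5 beaded filament chains, 4 transmembrane chains, 3 anchoring fibril and other chains, 2 multiplexins and 2 short-chain network chains. The mice were 14 to 16 weeks old and fell into 4 groups of 5. Trained labelled knockout mice carried a knockout of PGC-1α that the labels place in cardiomyocytes, and had run voluntarily on a wheel for 6 weeks. Sedentary labelled knockout mice carried the same genotype without training. Trained wild-type mice had run for the same 6 weeks, and sedentary wild-type mice had neither. PGC-1α, encoded by Ppargc1a, is a transcriptional coactivator of mitochondrial genes, and the series title puts its link to the stress cytokine GDF15 in the trained heart as the question. The driver of the knockout and the exons removed are not given in the sources used here.

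A collagen molecule is a triple helix of chains, wound in the endoplasmic reticulum after prolines and lysines have been hydroxylated, then secreted, trimmed and cross-linked. In the heart, fibroblasts make most of the type I and type III fibrils that run between muscle bundles, while type IV collagen forms the sheets of basement membrane around each cardiomyocyte and under the endothelium. Type VI filaments, FACITs and multiplexins lie at the borders between these, and the fibrillar chains are the ones classically measured in cardiac fibrosis. The comparisons below ask how genotype and training relate to each chain and class.

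The values are FPKM, fragments scaled by exon length and library size, so levels can be set side by side between genes. Differences are log2 fold changes on the log2(FPKM + 0.5) scale with their standard error, which understates the change of chains at low levels, and were tested with limma. Adjusted p (Benjamini-Hochberg) covers all 13723 genes with a mean of at least 0.5 FPKM, and a chain is called where it is below 0.05. Depth was 14.2 to 30.4 M recovered reads per library. The p-values measure the spread between these 20 libraries. Ppargc1a went against the labels, with 23.0, 26.9, 21.2, 18.7 and 23.0 FPKM in trained labelled knockout hearts, 27.9, 18.8, 23.0, 18.2 and 26.5 FPKM in sedentary labelled knockout hearts, 21.9, 10.4, 17.4, 11.2 and 17.98 FPKM in trained wild-type hearts and 14.8, 9.39, 15.4, 12.2 and 9.48 FPKM in sedentary wild-type hearts. Sedentary hearts of the labelled genotypes did not overlap, with the labelled knockout higher, and trained hearts overlapped. A gene value does not show which exons were read, and the genotype is written as labelled throughout. Cardiomyocyte transcripts were abundant in every library, with Myh6, the main myosin heavy chain of the adult mouse heart, at 3165 to 6428 FPKM. Some libraries stood apart. Myl7, an atrial myosin light chain, was at 1355 to 3484 FPKM in replicates 2 and 5 of trained labelled knockout and 4 and 5 of trained wild-type hearts, and at no more than 97.1 FPKM in the other 16. Arntl, a clock gene, was above 2 FPKM in sedentary labelled knockout replicate 1 and sedentary wild-type replicates 1 to 4. Upk3b, a gene of the mesothelial covering, was above 5 FPKM in replicates 1, 2 and 5 of trained labelled knockout and 2, 4 and 5 of trained wild-type hearts. Fits without these libraries kept only replicates 3 and 4 of trained labelled knockout and 1 and 3 of trained wild-type hearts. In bulk tissue, fewer cells of a type and less RNA per cell cannot be told apart.

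Of the 42 chains 25 were tested and 17 lay below the mean of 0.5 FPKM. The lowest chain tested averaged 0.643 FPKM and the highest left out 0.493 FPKM over the 20 hearts. Of the tested chains, 22 reached 0.5 FPKM on average in sedentary wild-type hearts. Col4a6, Col8a2 and Col23a1 did not, and entered the test through other groups.

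Collagen transcripts rose in trained hearts labelled knockout, against both sedentary hearts of that genotype and trained wild-type hearts. In trained against sedentary labelled knockout hearts 17 of 25 chains were higher and 0 lower, where 12.1% of all genes tested were called higher, 16.3% lower and 28.4% in either direction. In trained labelled knockout against trained wild-type hearts 16 were higher and 0 lower, beside 12.5% and 15.4% of all genes, or 27.9% in either direction. At an unadjusted p below 0.05 they were 18 and 0, beside 17.5% and 20.5%. These comparisons share the trained labelled knockout libraries, and 16 chains were called in both. The groups of 5 did not overlap for 17 tested chains in the first comparison and 14 in the second, all higher, beside 8.96% and 8.07% of all genes. Both counts include Col8a2, which passed the filter only through the trained labelled knockout group. The interaction subtracts the wild-type training change from the one in labelled knockout mice. It was called for 13 chains, all positive and all among the 16, beside 2.32% of genes called positive, 5.00% negative and 7.32% either way. At the unadjusted p 18 interactions were positive and 1 negative, beside 10.9% and 15.1%. Without the 5 high-Arntl libraries, which leaves 1 sedentary wild-type heart, the interaction was called for 0 chains. The 13 were then at 0.36 to 1.84 with adjusted p of 0.397 to 0.671. With log2 Arntl as a covariate it was called for 7, and Col14a1, Col5a2, Col8a1, Col6a1, Col4a5 and Col15a1 no longer passed. The pairwise counts came to 17 and 16 without these libraries, and without the 4 high-Myl7 libraries to 20 higher and 0 lower in the first, 18 higher and 1 lower (Col6a6) in the second, and 15 positive and 1 negative (Col11a2) for the interaction. Col8a2, among the 17, 16 and 13, and Col4a6, among none of them, averaged 0.249 and 0.483 FPKM over the 15 hearts outside the trained labelled knockout group and so passed the filter through that group. Over the other 23 chains, a count added after the values were seen, the calls were 16, 15 and 12, with medians of 0.95, 0.89 and 0.94.

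Genotype at rest and training of wild-type mice gave no called chain. In sedentary labelled knockout against sedentary wild-type hearts 0 of 25 chains passed by limma, beside 6.96% of all genes higher, 6.32% lower and 13.3% in either direction. At the unadjusted p 1 chain was higher and 2 were lower, beside 14.6% and 15.0%. In trained against sedentary wild-type hearts 0 passed, beside 2.94% higher, 2.53% lower and 5.47% in either direction. At the unadjusted p 4 chains were higher and 0 lower, beside 12.5% and 14.4%. The groups did not overlap for 0 chains here, beside 2.24% of genes higher and 1.68% lower, and for 1 chain in the sedentary comparison, beside 5.14% higher and 5.29% lower. Limma voom on recovered reads also called 0 in each. The median log2 fold change of the 25 chains was 0.95 for training in labelled knockout and 0.03 for training in wild-type hearts, against −0.02 and −0.01 for all genes. For genotype it was 0.89 in trained and 0.03 in sedentary hearts, against −0.01 in both for all genes.

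**Figure D1:**
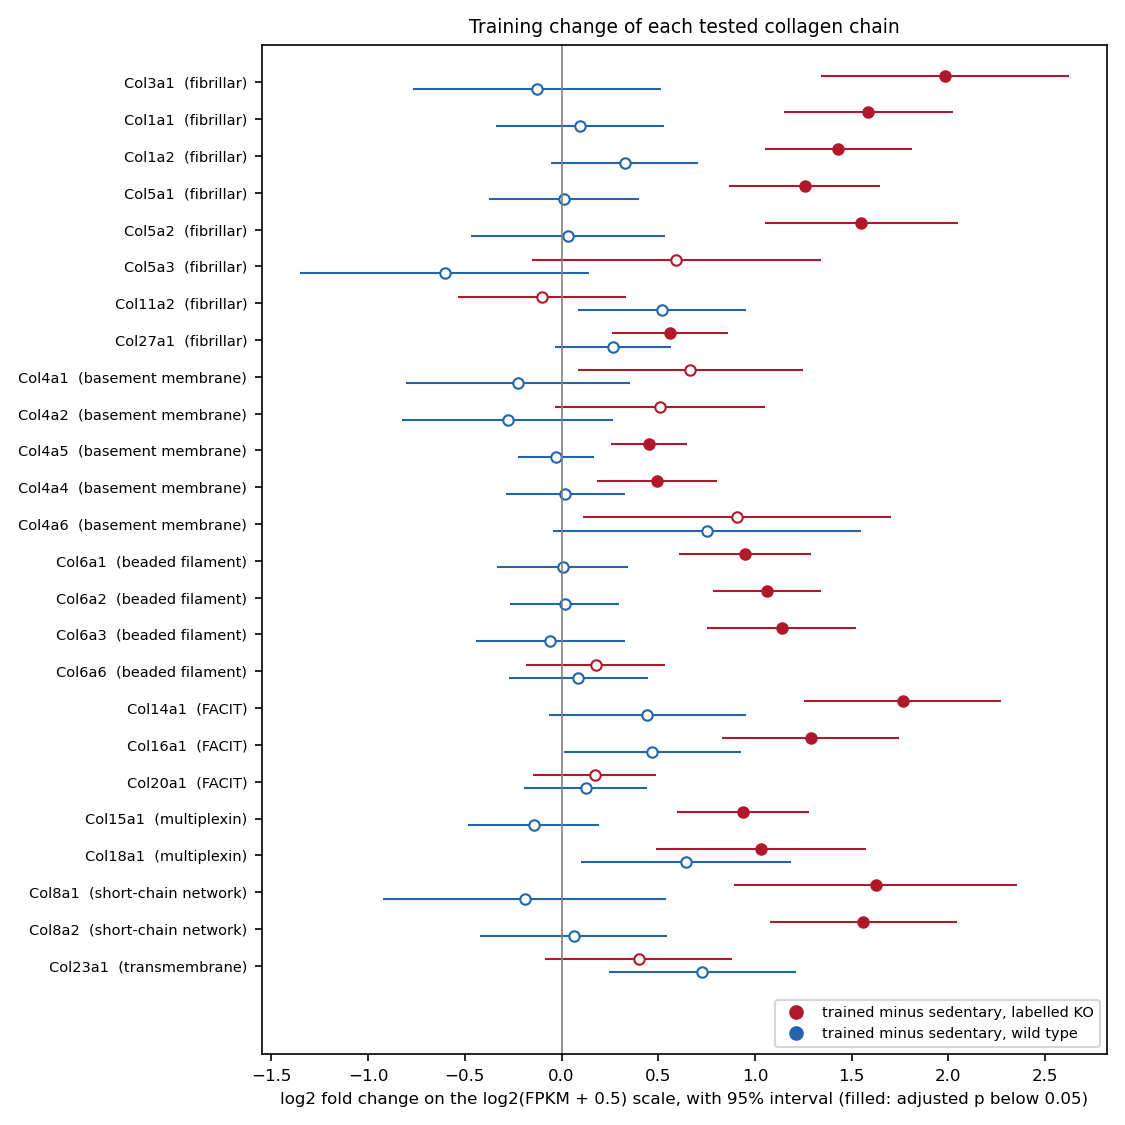
Training change (log2 fold change on the log2(FPKM + 0.5) scale, horizontal axis) of the 25 tested chains in labelled knockout (red) and wild-type hearts (blue), with 95% intervals and filled points where the adjusted p is below 0.05. In labelled knockout hearts 17 points are filled and in wild-type hearts 0.

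Fibrillar chains held the largest differences in level. Col3a1, the single chain of type III collagen (ENSMUSG00000026043, plus strand of chromosome 1, 45311538 to 45349706, a coding gene, GRCm38), had 142, 51.8, 169.6, 192 and 55.7 FPKM in trained labelled knockout hearts, 33.3, 29.7, 24.6, 23.2 and 22.9 FPKM in sedentary labelled knockout hearts, 25.3, 38.4, 29.1, 23.97 and 16.6 FPKM in trained wild-type hearts and 30.1, 30.6, 27.0, 32.2 and 21.9 FPKM in sedentary wild-type hearts. All 5 trained labelled knockout hearts lay above the other 15, and replicates 2 and 5 lay far below replicates 1, 3 and 4. The change with training in labelled knockout hearts was 1.98 ± 0.31 (adjusted p = 0.000102), and the difference from trained wild-type hearts 2.02 ± 0.31 (adjusted p = 5.21e-05). In wild-type hearts the training change was -0.13, with a 95% interval of -0.77 to 0.52, and the interaction was 2.11 ± 0.43 (adjusted p = 0.00947).

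Type I collagen, the stiff main fibre of heart and tendon, is built from Col1a1 and Col1a2 chains. Col1a1 (ENSMUSG00000001506, plus strand of chromosome 11, 94936224 to 94953042) had 74.8, 43.3, 95.5, 120.1 and 50.3 FPKM in trained labelled knockout hearts, 23.5, 23.5, 22.6, 25.9 and 22.1 FPKM in sedentary labelled knockout hearts, 20.2, 29.9, 22.3, 24.4 and 20.9 FPKM in trained wild-type hearts and 22.3, 26.8, 17.5, 25.5 and 18.3 FPKM in sedentary wild-type hearts. The lowest trained labelled knockout heart exceeded the highest of the other 15. Its training change in labelled knockout hearts was 1.59 ± 0.21 (adjusted p = 2.74e-05) and its interaction 1.49 ± 0.30 (adjusted p = 0.00825). Col1a2 (ENSMUSG00000029661, plus strand of chromosome 6, 4504814 to 4541544) had 45.2, 28.1, 51.8, 66.1 and 35.1 FPKM in trained labelled knockout hearts, 12.4, 15.9, 16.0, 18.6 and 16.5 FPKM in sedentary labelled knockout hearts, 11.8, 19.6, 13.1, 16.6 and 16.8 FPKM in trained wild-type hearts and 11.4, 13.1, 10.2, 13.8 and 12.5 FPKM in sedentary wild-type hearts. The groups separated in the same way, with a training change of 1.43 ± 0.18 (adjusted p = 1.88e-05), a difference from trained wild-type hearts of 1.47 ± 0.18 (adjusted p = 5.48e-06) and an interaction of 1.11 ± 0.26 (adjusted p = 0.017). The ratio of Col1a1 to Col1a2 FPKM was 1.25 to 2.04 over the 20 hearts.

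Type V collagen sits inside type I fibrils and sets their diameter. Col5a1 had 20.1, 12.2, 26.0, 31.9 and 14.3 FPKM in trained labelled knockout hearts, 7.60, 8.48, 8.32, 8.004 and 7.31 FPKM in sedentary labelled knockout hearts, 8.89, 9.52, 8.65, 7.37 and 6.84 FPKM in trained wild-type hearts and 8.36, 8.73, 6.39, 9.46 and 7.99 FPKM in sedentary wild-type hearts. Col5a2, whose gene lies tail to tail with Col3a1 at a distance of 24615 bases on chromosome 1 with no other coding gene between, had 14.9, 7.21, 18.3, 27.5 and 8.25 FPKM in trained labelled knockout hearts, 4.45, 4.64, 3.88, 4.30 and 4.24 FPKM in sedentary labelled knockout hearts, 4.02, 5.25, 3.79, 4.37 and 3.73 FPKM in trained wild-type hearts and 4.24, 4.58, 4.05, 4.29 and 3.40 FPKM in sedentary wild-type hearts. For both chains every trained labelled knockout heart exceeded the other 15. The training change in labelled knockout hearts was 1.26 ± 0.19 for Col5a1 (adjusted p = 7.06e-05) and 1.55 ± 0.24 for Col5a2 (adjusted p = 0.0001). Their interactions were 1.24 ± 0.26 and 1.52 ± 0.34 (adjusted p = 0.0111 and 0.0138). The ratio of Col5a1 to Col5a2 FPKM averaged 1.47 in trained labelled knockout hearts, 1.85 in sedentary labelled knockout, 1.97 in trained wild-type and 2.00 in sedentary wild-type hearts, with the trained labelled knockout range of 1.16 to 1.73 overlapping the others at its upper end.

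Across the class 6 of the 8 tested fibrillar chains were higher in trained than in sedentary labelled knockout hearts and 0 lower, beside 12.1% and 16.3% of all genes. Their median log2 fold change was 1.34. Col27a1, a fibrillar chain known mainly from cartilage, was the sixth and was chosen for mention after its values were seen, as were Col5a3 and Col11a2. It had 1.19 to 1.53 FPKM in trained labelled knockout hearts, 0.539 to 1.085 in sedentary labelled knockout hearts, 0.533 to 1.22 in trained wild-type hearts and 0.469 to 0.799 in sedentary wild-type hearts, a training change of 0.56 ± 0.14 (adjusted p = 0.00619) and a difference from trained wild-type hearts of 0.48 (adjusted p = 0.0158), which came to 0.40 (adjusted p = 0.0518) without trained wild-type replicate 3. Col5a3, the further type V chain, did not pass in any comparison and had 3.19 to 10.4 FPKM in trained labelled knockout hearts, 2.30 to 7.70 in sedentary labelled knockout hearts, 2.49 to 8.53 in trained wild-type hearts and 3.59 to 10.6 in sedentary wild-type hearts. Without the high-Myl7 libraries its training change in labelled knockout hearts passed at 1.02 (adjusted p = 0.0345) and its genotype difference in sedentary mice at −0.96 (adjusted p = 0.0421). Col11a2 did not pass either, at 0.774 to 2.06 FPKM in trained labelled knockout hearts, 0.867 to 1.61 in sedentary labelled knockout hearts, 0.914 to 2.10 in trained wild-type hearts and 0.649 to 1.24 in sedentary wild-type hearts, and its reads could not be recovered as whole numbers. Its interaction was −0.94 (adjusted p = 0.0497) without the high-Myl7 libraries, and its training change in wild-type hearts 0.64 (adjusted p = 0.0439) without trained wild-type replicate 1. Col2a1, Col11a1 and Col24a1 stayed below the filter, with no heart above 0.172 FPKM.

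The windows around the starts of fibrillar genes are shown because both chains were called higher in the same hearts while their promoter sequences differ. RefSeq gives 300 bases, 250 before and 50 after the start, for GRCm38.p6. The Col1a2 window lies inside the gene coordinates given above, 4504814 to 4541544, so its start is not the first base of those. Capitals mark CCAAT and TATAAA on either strand. CCAAT is the binding word of the factor NF-Y, which is known at the Col1a2 promoter, and TATAAA the word of the TATA box. No position was required of a match, and TATAAA in the Col3a1 window lies well before the start.
Col1a2 (chr6:4505368-4505667, plus strand): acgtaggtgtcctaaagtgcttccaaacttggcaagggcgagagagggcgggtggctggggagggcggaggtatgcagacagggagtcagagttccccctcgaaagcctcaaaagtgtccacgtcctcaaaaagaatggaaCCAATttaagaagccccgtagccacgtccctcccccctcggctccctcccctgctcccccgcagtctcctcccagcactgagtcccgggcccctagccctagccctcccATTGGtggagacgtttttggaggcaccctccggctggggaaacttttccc
Col3a1 (chr1:45311288-45311587, plus strand): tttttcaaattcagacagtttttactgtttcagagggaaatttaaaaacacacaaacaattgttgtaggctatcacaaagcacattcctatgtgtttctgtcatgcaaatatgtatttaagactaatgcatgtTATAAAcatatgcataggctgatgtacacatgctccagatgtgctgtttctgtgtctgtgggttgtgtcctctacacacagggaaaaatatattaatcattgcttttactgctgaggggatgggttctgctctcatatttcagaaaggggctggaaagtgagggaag
The Col1a2 window holds CCAAT on each strand and no TATAAA, and has 61.0% G and C. The Col3a1 window holds TATAAA and no CCAAT, and has 37.7% G and C, against a median of 52.7% over all 32851 windows. CCAAT, the TATA box word TATAAA and the GC box word GGGCGG were searched on both strands, and none contains another. Windows were found for 33 of the 42 chains, 36 windows in all, and Col1a1 had none. CCAAT was in 33.3% of collagen windows and 37.4% of all windows, TATAAA in 11.1% and 13.6%, and GGGCGG, the GC box, in 61.1% and 35.7%. A match describes letters in a window and not a site in use.

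**Figure D2:**
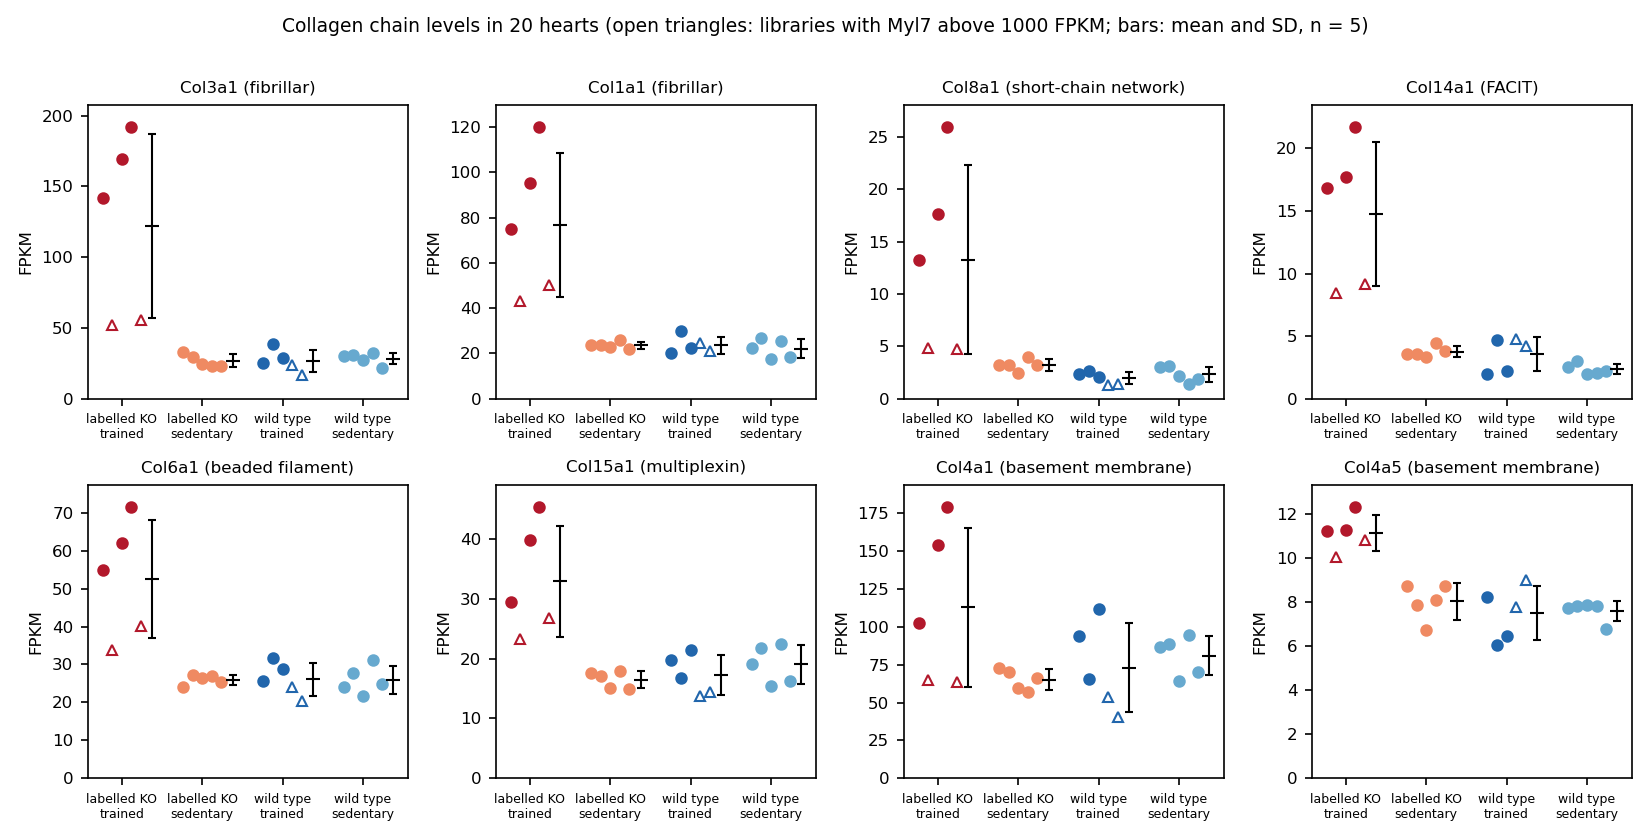
Levels in FPKM (vertical axes, each from 0) of 8 chains in each of 20 hearts, with mean and SD (n = 5) beside each group and open triangles for libraries with Myl7 above 1000 FPKM. In 7 of the panels the 5 trained labelled knockout hearts lie above all others, and in the Col4a1 panel they overlap.

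Basement membrane chains were the most abundant collagens in sedentary hearts. In each comparison with trained labelled knockout hearts 2 of 5 tested were called, beside 28.4% and 27.9% of all genes in either direction. Col4a1 and Col4a2, which form the ubiquitous type IV network, took the first and second places among all collagen chains by FPKM in 17 of 20 hearts. In trained labelled knockout replicates 1, 3 and 4 Col3a1 was first. Col4a1 (ENSMUSG00000031502, minus strand of chromosome 8, 11198423 to 11312826) had 103, 64.6, 154, 179 and 63.2 FPKM in trained labelled knockout hearts, 72.9, 70.5, 59.3, 56.7 and 65.9 FPKM in sedentary labelled knockout hearts, 93.7, 65.7, 112, 53.5 and 40.4 FPKM in trained wild-type hearts and 86.6, 88.5, 64.5, 94.4 and 70.4 FPKM in sedentary wild-type hearts. Replicates 1, 3 and 4 of trained labelled knockout hearts were high, replicates 2 and 5 lay within the range of the other groups, and the groups overlapped. Its training change was 0.67 ± 0.28 (adjusted p = 0.0809) and its difference from trained wild-type hearts 0.59 ± 0.28 (adjusted p = 0.127), so neither passed. Col4a2 behaved alike in the test, at 0.51 ± 0.26 (adjusted p = 0.157) and 0.60 ± 0.26 (adjusted p = 0.0961). Without the 4 high-Myl7 libraries both chains passed, with training changes of 1.12 (adjusted p = 0.00044) and 0.92 (adjusted p = 0.0018), and differences from trained wild-type hearts of 0.68 and 0.66 (adjusted p = 0.0269 and 0.0289). Leaving out trained labelled knockout replicate 2 or 5 alone was enough for the Col4a1 training change to pass, at 0.83 and 0.84 (adjusted p = 0.0329 and 0.0288), and without trained wild-type replicate 3 the Col4a2 difference from trained wild-type hearts was 0.76 (adjusted p = 0.0403). Rescaling to TPM also brought both past the threshold, with training changes of 0.94 and 0.78, while moving the median of all genes to 0.21.

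The Col4a1 and Col4a2 genes lie head to head on chromosome 8, Col4a1 on the minus strand from 11312826 downward and Col4a2 on the plus strand from 11312805 upward, so that the annotated genes overlap by a few bases. Their windows are shown because the promoter between them is shared. In the RefSeq windows below (GRCm38.p6) capitals mark the 78 bases that both windows contain, chr8:11312777-11312854, each read along its own gene.
Col4a1 (chr8:11312777-11313076, minus strand): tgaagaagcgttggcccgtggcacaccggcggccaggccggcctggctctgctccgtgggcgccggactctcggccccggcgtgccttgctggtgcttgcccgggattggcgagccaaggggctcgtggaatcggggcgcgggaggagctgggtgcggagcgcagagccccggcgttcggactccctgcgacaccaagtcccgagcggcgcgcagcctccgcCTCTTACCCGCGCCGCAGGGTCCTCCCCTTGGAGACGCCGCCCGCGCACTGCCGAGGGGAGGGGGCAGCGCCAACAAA
Col4a2 (chr8:11312555-11312854, plus strand): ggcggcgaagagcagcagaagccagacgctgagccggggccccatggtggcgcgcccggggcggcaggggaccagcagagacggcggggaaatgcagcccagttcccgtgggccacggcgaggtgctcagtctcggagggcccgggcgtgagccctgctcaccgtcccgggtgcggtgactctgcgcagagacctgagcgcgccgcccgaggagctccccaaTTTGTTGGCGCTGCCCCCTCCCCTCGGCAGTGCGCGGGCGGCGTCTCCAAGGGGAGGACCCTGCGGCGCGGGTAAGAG
Both windows are rich in G and C, at 74.0% and 73.7%, and each holds CCAAT and GGGCGG. The levels of the pair kept a narrow ratio, with Col4a1 at 0.902 to 1.14 times the Col4a2 FPKM over 20 hearts, although Col4a1 itself ranged from 40.4 to 179 FPKM. Whether counting used the strand is not given in the sources used here, so reads from the few overlapping bases cannot be told apart.

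The remaining type IV chains come in 2 further head-to-head pairs. Col4a5, on chromosome X 1309 bases from Col4a6, had 11.2, 10.04, 11.3, 12.3 and 10.8 FPKM in trained labelled knockout hearts, 8.72, 7.86, 6.70, 8.10 and 8.72 FPKM in sedentary labelled knockout hearts, 8.24, 6.07, 6.46, 7.75 and 8.98 FPKM in trained wild-type hearts and 7.72, 7.82, 7.85, 7.80 and 6.77 FPKM in sedentary wild-type hearts. Every trained labelled knockout heart lay above the other 15, by a small margin. The training change was 0.45 ± 0.09 (adjusted p = 0.00138), the difference from trained wild-type hearts 0.55 ± 0.09 (adjusted p = 0.000189) and the interaction 0.48 ± 0.13 (adjusted p = 0.0368). That interaction no longer passed in 11 of the 20 fits that each left out 1 library, at 0.41 to 0.48 with adjusted p of 0.0568 to 0.0755. The libraries were replicates 1, 3 and 4 of trained labelled knockout, 2, 3 and 4 of sedentary labelled knockout, 2 and 3 of trained wild-type and 1, 2 and 3 of sedentary wild-type hearts. Col4a4, on chromosome 1 at 72 bases from Col4a3, had 1.396 to 2.46 FPKM in trained labelled knockout hearts, 1.09 to 1.31 in sedentary labelled knockout hearts, 0.876 to 1.45 in trained wild-type hearts and 0.764 to 1.54 in sedentary wild-type hearts and was called with a training change of 0.49 ± 0.15 (adjusted p = 0.0167). Without trained labelled knockout replicate 4 it came to 0.41 (adjusted p = 0.0574). Its difference from trained wild-type hearts, 0.49 (adjusted p = 0.0172), came to 0.41 without the same heart and to 0.42 without trained wild-type replicate 3 (adjusted p = 0.0582 and 0.0534). Col4a3 missed the filter at a mean of 0.493 FPKM, and in a fit without a filter had a training change of 0.49 (adjusted p = 0.0165). Col4a4, Col4a3 and Col4a6 are named after their values were seen. In the class, 2 of 5 tested chains were called higher and 0 lower in each comparison with trained labelled knockout hearts, with medians of 0.51 and 0.55. Of all genes 12.1% were higher and 16.3% lower in the first comparison, and 12.5% and 15.4% in the second. With 5 chains, a count of 2 is little to read against these shares.

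Col4a6 followed another pattern. It had 0.493, 2.49, 0.497, 0.451 and 2.76 FPKM in trained labelled knockout hearts, 0.252, 0.206, 0.381, 0.590 and 0.277 FPKM in sedentary labelled knockout hearts, 0.200, 0.400, 0.263, 1.54 and 2.05 FPKM in trained wild-type hearts and 0.0958, 0.313, 0.212, 0.268 and 0.198 FPKM in sedentary wild-type hearts. The high values in trained hearts of both genotypes fell in the 4 high-Myl7 libraries, at 1.54 to 2.76 FPKM, while every other heart was at 0.590 FPKM or below. Its training changes were 0.91 in labelled knockout and 0.75 in wild-type hearts (adjusted p = 0.0829 and 0.208), and 0.24 and 0.14 without those libraries.

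**Figure D3:**
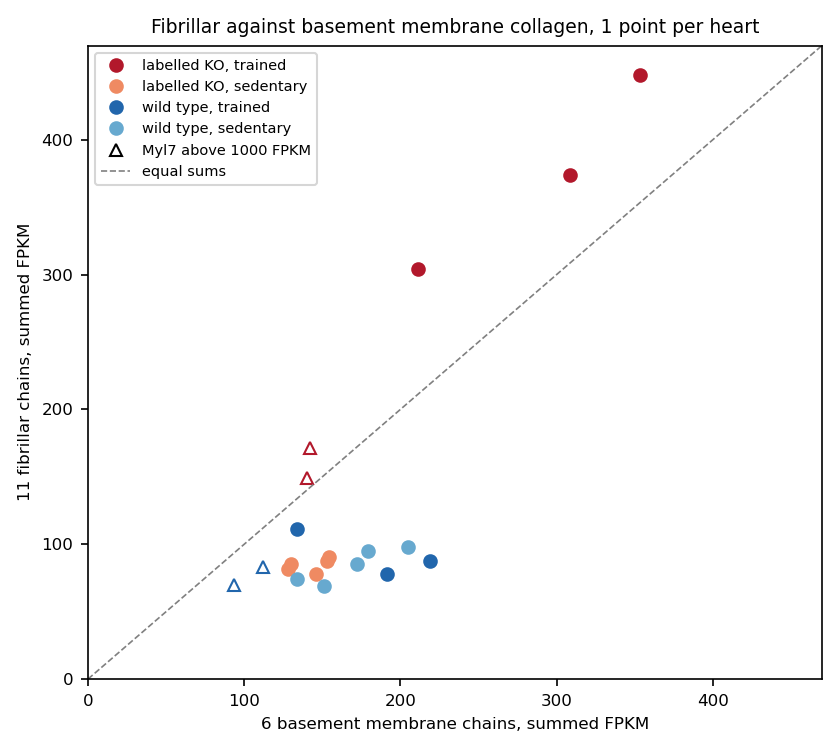
Summed FPKM of the 11 fibrillar chains (vertical axis) against that of the 6 basement membrane chains (horizontal axis), 1 point per heart, with open triangles for Myl7 above 1000 FPKM and a dashed line where the sums are equal. The 5 trained labelled knockout hearts lie above the line and the other 15 below it.

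The balance of the classes differed between groups. Summed over 11 chains, fibrillar collagen came to 289 ± 129 FPKM in trained labelled knockout hearts, 84.6 ± 4.87 FPKM in sedentary labelled knockout hearts, 85.9 ± 15.7 FPKM in trained wild-type hearts and 84.5 ± 12.6 FPKM in sedentary wild-type hearts (SD, n = 5 each). Basement membrane chains summed to 231 ± 96.8 FPKM in trained labelled knockout hearts, 142 ± 12.6 FPKM in sedentary labelled knockout hearts, 149.95 ± 53.4 FPKM in trained wild-type hearts and 168 ± 27.3 FPKM in sedentary wild-type hearts. The ratio of the fibrillar to the basement membrane sum was 1.06 to 1.44 in trained labelled knockout hearts, 0.535 to 0.654 in sedentary labelled knockout, 0.400 to 0.832 in trained wild-type and 0.458 to 0.556 in sedentary wild-type hearts. The trained labelled knockout range did not overlap any other, and it includes the high-Myl7 replicates 2 and 5, at 1.06 and 1.204. Fibrillar chains made up 36.8 to 44.6% of collagen FPKM in those hearts and 22.5 to 33.4% in the other 15. All chains together took 0.582 ± 0.239% of recovered reads in trained labelled knockout hearts, 0.215 ± 0.0114% in sedentary labelled knockout, 0.223 ± 0.0337% in trained wild-type and 0.217 ± 0.0351% in sedentary wild-type hearts. These sums are dominated by the most abundant chains and carry no test.

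Type VI collagen forms beaded filaments that tie cells to the surrounding matrix. Col6a1, the most abundant of them, had 54.9, 33.8, 62.1, 71.6 and 40.2 FPKM in trained labelled knockout hearts, 23.97, 27.2, 26.4, 27.1 and 25.5 FPKM in sedentary labelled knockout hearts, 25.6, 31.7, 28.9, 24 and 20.3 FPKM in trained wild-type hearts and 24.03, 27.8, 21.7, 31.3 and 24.8 FPKM in sedentary wild-type hearts. Col6a2 and Col6a1 lie on the same strand of chromosome 10, 85162 bases apart, and Col6a2 had 26.2, 19.4, 31.6, 37.9 and 22.5 FPKM in trained labelled knockout hearts, 12.3, 13.5, 12.7, 12.2 and 12.1 FPKM in sedentary labelled knockout hearts, 13.1, 14.8, 13.1, 11.96 and 11.5 FPKM in trained wild-type hearts and 12.8, 13.8, 10.6, 14.9 and 11.8 FPKM in sedentary wild-type hearts. Col6a3, the long chain of the trimer, had 8.64, 5.91, 11.1, 9.62 and 6.77 FPKM in trained labelled knockout hearts, 4.39, 3.51, 2.84, 3.04 and 3.66 FPKM in sedentary labelled knockout hearts, 4.15, 3.93, 4.83, 3.73 and 3.09 FPKM in trained wild-type hearts and 4.57, 5.09, 3.89, 5.26 and 2.33 FPKM in sedentary wild-type hearts. For all 3 chains the lowest trained labelled knockout heart exceeded the highest of the other 15. The training changes in labelled knockout hearts were 0.95 ± 0.16, 1.06 ± 0.13 and 1.14 ± 0.18 (adjusted p = 0.000252, 1.88e-05 and 0.000152). The interactions were 0.94, 1.05 and 1.197 (adjusted p = 0.0211, 0.00702 and 0.0122). Col6a1 FPKM was 1.74 to 2.22 times that of Col6a2 over the 20 hearts. Col6a6 passed in no comparison, at 0.544 to 1.88 FPKM in trained labelled knockout hearts, 0.916 to 1.33 in sedentary labelled knockout hearts, 1.43 to 2.06 in trained wild-type hearts and 1.18 to 1.88 in sedentary wild-type hearts. Its difference from trained wild-type hearts was -0.32 (adjusted p = 0.186), and it passed as lower without the high-Myl7 libraries, at −0.69 (adjusted p = 0.0114), and without the high-Upk3b libraries, at −0.83 (adjusted p = 0.00672). The last of these fits kept only replicates 3 and 4 of trained labelled knockout and 1 and 3 of trained wild-type hearts. Col6a5 averaged below the filter, with 526 recovered reads in trained labelled knockout replicate 1 and 0 to 14 in every other heart. In the class 3 of 4 tested chains were higher in each comparison with trained labelled knockout hearts, with medians of 1.01 and 0.97. Of all genes 12.1% and 12.5% were higher there.

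The short-chain network collagens, known from vessel walls and the corneal Descemet membrane, showed large relative changes. Col8a1 had 13.2, 4.81, 17.6, 25.9 and 4.74 FPKM in trained labelled knockout hearts, 3.17, 3.19, 2.42, 4.00 and 3.19 FPKM in sedentary labelled knockout hearts, 2.35, 2.64, 2.04, 1.35 and 1.39 FPKM in trained wild-type hearts and 2.98, 3.13, 2.21, 1.38 and 1.87 FPKM in sedentary wild-type hearts. Trained labelled knockout replicates 2 and 5 were closest to the other hearts and still above all 15. Its training change was 1.62 ± 0.35 (adjusted p = 0.00172) and its difference from trained wild-type hearts 2.23 ± 0.35 (adjusted p = 7.3e-05), the largest of any collagen chain tested. The interaction of 1.81 ± 0.49 (adjusted p = 0.0338) no longer passed in 12 of the 20 fits without 1 library, at 1.51 to 1.83 with adjusted p of 0.0506 to 0.0697. These left out replicates 1, 3 or 4 of trained labelled knockout, 2, 3 or 5 of sedentary labelled knockout, 3, 4 or 5 of trained wild-type or 1, 2 or 3 of sedentary wild-type hearts. Col8a2 had 1.61, 0.955, 2.18, 3.90 and 1.498 FPKM in trained labelled knockout hearts, 0.178, 0.133, 0.274, 0.578 and 0.405 FPKM in sedentary labelled knockout hearts, 0.111, 0.426, 0.0267, 0.381 and 0.251 FPKM in trained wild-type hearts and 0.182, 0.237, 0.221, 0.219 and 0.110 FPKM in sedentary wild-type hearts. All 5 trained labelled knockout hearts lay above the other 15. It stood on 92 to 428 recovered reads in trained labelled knockout hearts and on 2 to 38 in the others, and its training change was 1.56 ± 0.23 (adjusted p = 6.96e-05), with an interaction of 1.498 ± 0.33 (adjusted p = 0.0123) that voom on reads gave as 2.93 (adjusted p = 0.0568). Its level outside trained labelled knockout hearts was below the filter, so its being tested depended on the group in which it was high.

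FACIT chains bind to the surface of fibrils and link them to other matrix. Col14a1, the most abundant, had 16.8, 8.47, 17.7, 21.7 and 9.13 FPKM in trained labelled knockout hearts, 3.54, 3.54, 3.32, 4.46 and 3.85 FPKM in sedentary labelled knockout hearts, 2.00, 4.66, 2.17, 4.74 and 4.24 FPKM in trained wild-type hearts and 2.56, 3.01, 2.01, 2.04 and 2.20 FPKM in sedentary wild-type hearts. The 5 trained labelled knockout hearts stood above all others. The training change was 1.76 ± 0.24 (adjusted p = 3.84e-05) and the difference from trained wild-type hearts 1.89 ± 0.24 (adjusted p = 8.72e-06). The sedentary groups did not overlap either, as the single chain of 25 of which this held, beside 5.14% of all genes, with a difference of 0.57 ± 0.24 that did not pass (adjusted p = 0.124) but did without the high-Myl7 libraries (adjusted p = 0.0326). The interaction of 1.32 ± 0.35 (adjusted p = 0.0292) no longer passed in 7 of the 20 fits without 1 library, at 1.16 to 1.29 with adjusted p of 0.0550 to 0.0611. These left out replicates 1, 3 or 4 of trained labelled knockout, 3 of sedentary labelled knockout, 3 of trained wild-type or 1 or 2 of sedentary wild-type hearts.

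Col16a1, a FACIT found beside fibrils and at basement membranes, had 6.01, 4.40, 8.10, 12.3 and 4.97 FPKM in trained labelled knockout hearts, 1.74, 2.62, 2.36, 2.99 and 2.66 FPKM in sedentary labelled knockout hearts, 1.75, 3.71, 2.18, 3.29 and 2.92 FPKM in trained wild-type hearts and 1.62, 2.29, 1.43, 1.98 and 1.79 FPKM in sedentary wild-type hearts. It rose with training in labelled knockout hearts by 1.29 ± 0.22 (adjusted p = 0.000225), and its interaction was 0.82 (adjusted p = 0.108), or 1.25 (adjusted p = 0.021) without the high-Myl7 libraries. Col20a1 passed in no comparison, and its exons overlap those of a second gene on the same strand, so its values are uncertain. Col12a1, a FACIT of tendon and of stressed matrix named after its values were seen, was left out by the filter, and had 0.529, 0.413, 0.902, 1.98 and 0.313 FPKM in trained labelled knockout hearts, 0.0574, 0.105, 0.0594, 0.229 and 0.139 FPKM in sedentary labelled knockout hearts, 0.0689, 0.121, 0.0709, 0.175 and 0.109 FPKM in trained wild-type hearts and 0.0602, 0.103, 0.107, 0.0431 and 0.0591 FPKM in sedentary wild-type hearts. All 5 trained labelled knockout hearts lay above the other 15, and a fit without a filter gave a training change of 0.98 and a difference from trained wild-type hearts of 1.00 (adjusted p = 0.00223 and 0.00166). Of the 3 tested FACIT chains 2 were higher in each comparison, with medians of 1.29 and 1.17, beside 12.1% and 12.5% of all genes higher. Col9a1, Col9a2, Col9a3, Col19a1 and Col22a1 stayed below the filter, with at most 94 recovered reads in any heart.

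The multiplexins sit in the outer basement membrane and carry large glycosaminoglycan chains. Col15a1 had 29.5, 23.3, 39.7, 45.4 and 26.7 FPKM in trained labelled knockout hearts, 17.6, 17.1, 15.0, 17.9 and 14.9 FPKM in sedentary labelled knockout hearts, 19.7, 16.8, 21.4, 13.7 and 14.4 FPKM in trained wild-type hearts and 19.1, 21.8, 15.4, 22.5 and 16.3 FPKM in sedentary wild-type hearts. Every trained labelled knockout heart exceeded the other 15, with a training change of 0.94 ± 0.16 (adjusted p = 0.000282) and an interaction of 1.081 ± 0.23 (adjusted p = 0.0111). Col18a1, the source of endostatin, was named after its values were seen and had 3.19, 8.09, 4.53, 4.94 and 9.45 FPKM in trained labelled knockout hearts, 1.93, 2.42, 2.62, 3.00 and 2.61 FPKM in sedentary labelled knockout hearts, 2.26, 4.18, 2.59, 5.98 and 6.01 FPKM in trained wild-type hearts and 2.06, 3.12, 1.76, 2.52 and 2.37 FPKM in sedentary wild-type hearts. Its highest values were those of the high-Myl7 libraries in both trained groups. The training change in labelled knockout hearts was 1.03 ± 0.26 (adjusted p = 0.00559), or 0.64 (adjusted p = 0.0183) without those libraries, and the difference from trained wild-type hearts did not pass (0.47, adjusted p = 0.196). That difference passed at 0.84 (adjusted p = 0.00773) without the high-Upk3b libraries, 0.73 (adjusted p = 0.0458) with TPM and 0.46 (adjusted p = 0.0459) with Myl7 as a covariate. The fit without the high-Upk3b libraries kept only replicates 3 and 4 of trained labelled knockout and 1 and 3 of trained wild-type hearts. The wild-type training change, 0.64 (adjusted p = 0.128), was 0.81 (adjusted p = 0.0385) without trained wild-type replicate 1. Of the multiplexins 2 of 2 were higher with training in labelled knockout hearts and 1 of 2 against trained wild-type hearts, beside 12.1% and 12.5% of all genes.

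**Figure D4:**
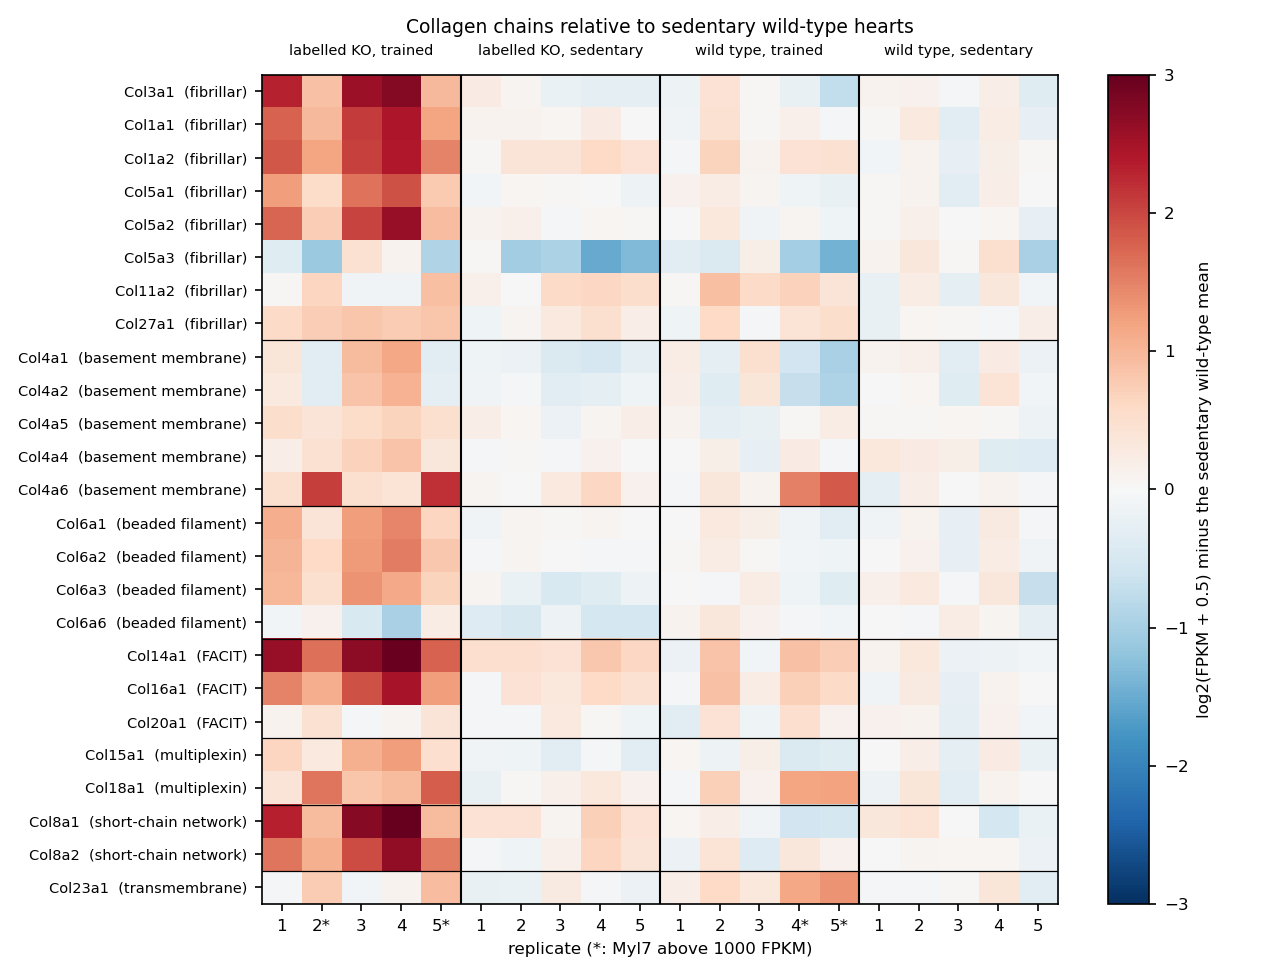
Each of the 25 tested chains (down) in each of 20 hearts (across) as log2(FPKM + 0.5) minus the mean of sedentary wild-type hearts, red above and blue below, with asterisks for Myl7 above 1000 FPKM. Red fills the 5 trained labelled knockout columns for most chains, and Col4a6, Col18a1 and Col23a1 are reddest in the marked columns.

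Transmembrane, anchoring fibril and other chains were low in every heart. Col23a1, the most abundant transmembrane chain, had 0.389, 1.03, 0.353, 0.477 and 1.22 FPKM in trained labelled knockout hearts, 0.278, 0.295, 0.597, 0.393 and 0.308 FPKM in sedentary labelled knockout hearts, 0.540, 0.877, 0.638, 1.55 and 1.82 FPKM in trained wild-type hearts and 0.382, 0.392, 0.438, 0.668 and 0.220 FPKM in sedentary wild-type hearts. The 4 high-Myl7 libraries held the 4 highest values, and no comparison passed, with 0.73 ± 0.23 for training in wild-type hearts (adjusted p = 0.0674) and 0.37 without those libraries. Leaving out trained wild-type replicate 1 or 3 brought it past the threshold, at 0.86 and 0.83 (adjusted p = 0.0205 and 0.0495), and with array weights the chain was lower in trained labelled knockout than in trained wild-type hearts, at −0.66 (adjusted p = 0.0208). Col7a1, the anchoring fibril chain of skin and the highest of its class, was below the filter, with 0.294, 0.376, 0.240, 0.298 and 0.459 FPKM in trained labelled knockout hearts, 0.321, 0.164, 0.289, 0.285 and 0.320 FPKM in sedentary labelled knockout hearts, 0.175, 0.351, 0.262, 0.530 and 0.477 FPKM in trained wild-type hearts and 0.153, 0.164, 0.210, 0.319 and 0.219 FPKM in sedentary wild-type hearts. The groups overlapped. Col26a1 and Col28a1 of its class had at most 47 recovered reads in any heart, and the transmembrane chains Col13a1, Col17a1 and Col25a1 at most 74. Of the 17 chains below the filter, Col12a1 and Col4a3 alone averaged at least 0.5 FPKM over trained labelled knockout hearts. In the fit without a filter 2 others passed in a single comparison, Col13a1 at −0.36 for training in labelled knockout hearts (adjusted p = 0.0437) and Col25a1 at −0.11 for trained labelled knockout against trained wild-type hearts (adjusted p = 0.0426).

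All 5 trained labelled knockout hearts exceeded the other 15 for 14 of the 25 tested chains, beside 3.01% of all genes tested, and for 15 of all 42. Col8a2 is among the 14 and, at a mean of 0.249 FPKM over the other 15 hearts, was tested only through the trained labelled knockout group. Within that group the hearts were not alike. The high-Myl7 replicates 2 and 5 lay below replicates 1, 3 and 4 for 17 of 25 chains, above them for 6 and between for 2. The mean of replicates 1, 3 and 4 over that of 2 and 5 was 3.96 for Col8a1, 3.12 for Col3a1, 2.27 for Col4a1, 2.07 for Col1a1 and 1.11 for Col4a5. In trained wild-type hearts the high-Myl7 replicates 4 and 5 lay below the other 3 for 11 chains, above them for 3 and between for 11. The shares of all genes in these positions were not computed, so these counts cannot be read as particular to collagen. Without the 4 libraries the training change of Col3a1 in labelled knockout hearts was 2.63 (adjusted p = 2.9e-07), that of Col1a1 1.99 (adjusted p = 1.76e-06) and that of Col8a1 2.36 (adjusted p = 4.86e-06), each larger than with all hearts.

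The genes that modify, trim and cross-link collagen were examined as a list of 29, of which 27 were tested. In trained against sedentary labelled knockout hearts 14 were higher and 0 lower, beside 12.1% and 16.3% of all genes, with a median log2 fold change of 0.36. In trained labelled knockout against trained wild-type hearts 13 were higher and 2 lower (median 0.30), beside 12.5% and 15.4% of all genes. Of the interactions 6 passed, all positive, beside 2.32% of genes positive and 5.00% negative. The cross-linking oxidases, which join lysines of neighbouring chains, all rose. Lox had 6.92, 1.58, 6.61, 10.5 and 1.29 FPKM in trained labelled knockout hearts, 0.947, 0.527, 0.645, 0.638 and 0.695 FPKM in sedentary labelled knockout hearts, 0.706, 1.36, 0.711, 0.822 and 1.21 FPKM in trained wild-type hearts and 0.794, 0.961, 1.15, 0.614 and 0.337 FPKM in sedentary wild-type hearts. Replicates 1, 3 and 4 of trained labelled knockout hearts were far above every other heart, replicate 2 was slightly above the other groups, and replicate 5 lay within the range of trained wild-type hearts. The training change of Lox in labelled knockout hearts was 1.97 (adjusted p = 0.000652), and those of Loxl1, Loxl2, Loxl3 and Loxl4 were 1.22, 1.31, 1.38 and 0.82 (adjusted p = 0.000139, 0.000882, 0.000645 and 0.00039). Interactions passed for Loxl1 to Loxl4, at 1.13, 1.42, 1.27 and 0.85, and not for Lox (1.76, adjusted p = 0.051).

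Adamts2, the protease that removes the amino-terminal propeptide of procollagen, had 12.2, 7.37, 15.8, 20.4 and 7.96 FPKM in trained labelled knockout hearts, 3.31, 3.50, 3.47, 3.81 and 3.76 FPKM in sedentary labelled knockout hearts, 3.36, 4.78, 3.08, 4.55 and 3.41 FPKM in trained wild-type hearts and 3.23, 3.63, 2.89, 3.15 and 3.13 FPKM in sedentary wild-type hearts. Every trained labelled knockout heart lay above the other 15, with a training change of 1.60 (adjusted p = 1.5e-05) and an interaction of 1.39 (adjusted p = 0.00825). Pcolce, which enhances removal of the carboxy-terminal propeptide, and Bmp1, which performs it, had training changes of 0.82 and 0.48 (adjusted p = 0.00103 and 0.00697). Against trained wild-type hearts Pcolce passed at 0.66 (adjusted p = 0.00547) and Bmp1 did not (0.28, adjusted p = 0.108), and neither interaction passed (adjusted p = 0.376 and 0.543). P3h2, a prolyl 3-hydroxylase, had a training change of 1.11 (adjusted p = 0.000449) and an interaction of 1.03 (adjusted p = 0.0379). Serpinh1, the collagen chaperone HSP47, had a training change of 0.45 in labelled knockout hearts (adjusted p = 0.00785) and of 0.36 in wild-type hearts (adjusted p = 0.0735), with an interaction of 0.08 (adjusted p = 0.776) and a difference from trained wild-type hearts of -0.04 (adjusted p = 0.856). P4hb, a subunit of prolyl 4-hydroxylase and also protein disulfide isomerase, had 143, 129.6, 152, 172 and 147 FPKM in trained labelled knockout hearts, 157, 157, 145, 163 and 169 FPKM in sedentary labelled knockout hearts, 87.8, 77.9, 88.6, 94.3 and 103 FPKM in trained wild-type hearts and 85.5, 82.3, 77.6, 105 and 98.3 FPKM in sedentary wild-type hearts. Hearts labelled knockout lay above all wild-type hearts, trained or sedentary, with a genotype difference of 0.72 in trained and 0.82 in sedentary mice (adjusted p = 7.23e-06 and 1.58e-05) and a training change of -0.09 that did not pass (adjusted p = 0.483). Pcolce2 differed by genotype at rest as well, at 0.78 (adjusted p = 0.00111), as did Plod1 and Plod3, which hydroxylate lysines, at 0.40 and 0.43 (adjusted p = 0.0409 and 0.0303). In trained hearts P4ha2 and P3h4 were lower in labelled knockout than in wild-type mice, at -0.44 and -0.53 (adjusted p = 0.0152 and 0.0342). P4ha1 and P3h3 were higher in trained than in sedentary wild-type hearts, by 0.76 and 0.56 (adjusted p = 0.0184 and 0.0481).

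**Figure D5:**
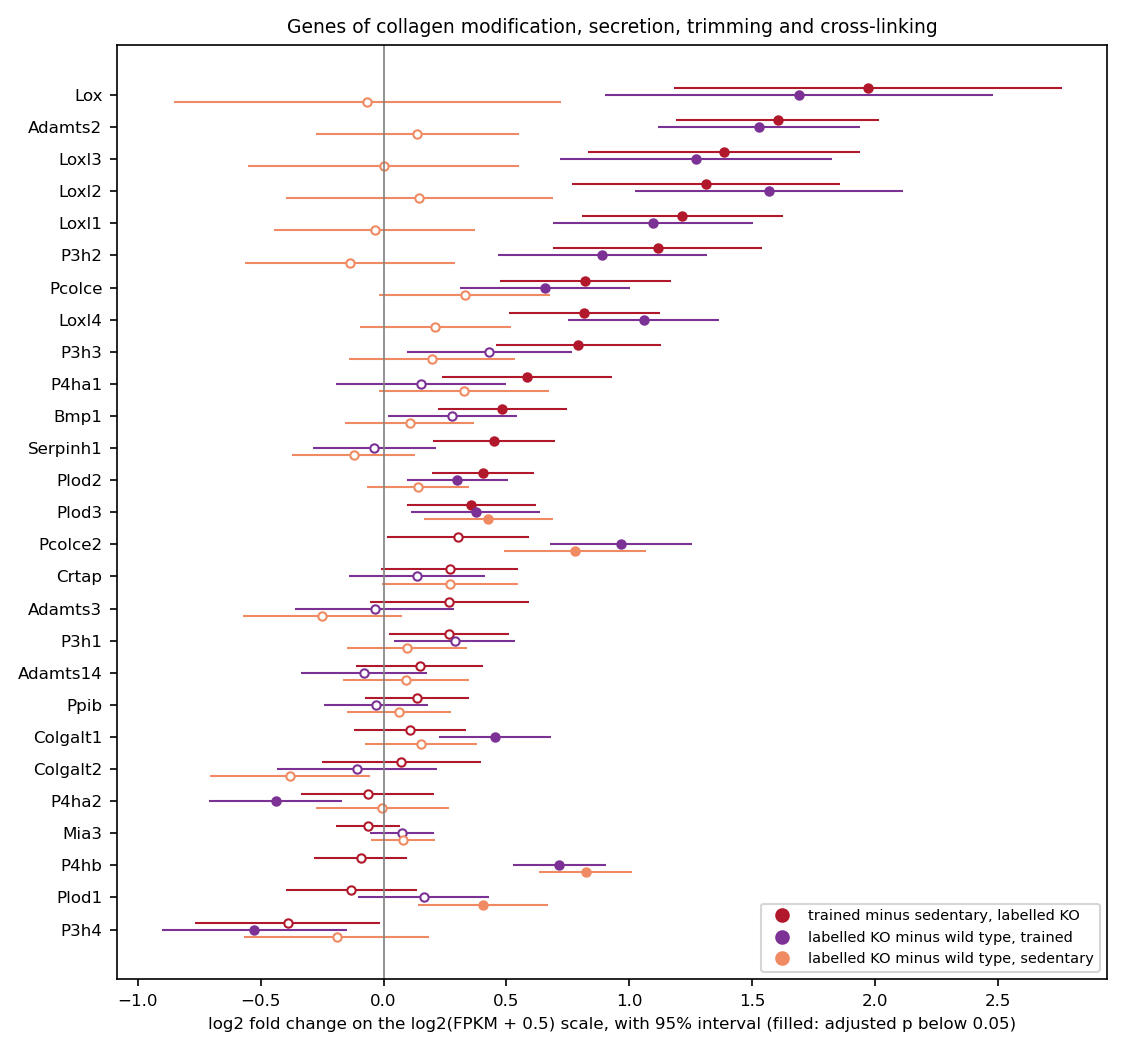
Log2 fold changes (log2(FPKM + 0.5) scale, horizontal axis) of 27 genes of collagen modification, trimming and cross-linking, with 95% intervals, for training in labelled knockout hearts (red), genotype in trained hearts (purple) and genotype in sedentary hearts (orange), filled where the adjusted p is below 0.05. Lox, Adamts2 and Loxl1 to Loxl4 lie to the right in both comparisons of trained labelled knockout hearts, and P4hb and Pcolce2 in both genotype comparisons.

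Of 11 collagen receptor genes 8 were tested. In trained against sedentary labelled knockout hearts 3 were higher and 0 lower, beside 12.1% and 16.3% of all genes. These were Ddr2, the discoidin receptor of fibroblasts for fibrillar collagen (1.00, adjusted p = 0.000149), Mrc2, an endocytic receptor that clears collagen (0.96, adjusted p = 0.000206), and Itga11, an integrin chain for fibrillar collagen (0.71, adjusted p = 0.0192). The interaction passed for Ddr2 alone, at 0.93 (adjusted p = 0.0219), beside 2.32% of genes positive and 5.00% negative. Ddr2 averaged 2.30 FPKM in sedentary labelled knockout and 3.29 in sedentary wild-type hearts, and 5.12 and 3.40 in the trained hearts. In trained labelled knockout against trained wild-type hearts 4 receptors were higher and 0 lower, beside 12.5% and 15.4% of all genes. Genotype at rest gave 0 calls, beside 6.96% of all genes higher and 6.32% lower. Training in wild-type hearts also gave 0, beside 2.94% and 2.53%. With 8 genes tested, 0 calls is near what these shares give.

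Markers of other cells also differed between groups. The counts below stand beside the shares of all genes tested. For training in labelled knockout hearts 12.1% were called higher and 16.3% lower, and for genotype in trained hearts 12.5% and 15.4%. For genotype in sedentary hearts the shares were 6.96% and 6.32%, and for training in wild-type hearts 2.94% and 2.53%. In lists this short a count of 1 is little to read against them. Of 8 fibroblast markers 5 were higher in trained than in sedentary labelled knockout hearts and 0 lower, and their summed level was 921 to 1514 FPKM in trained labelled knockout hearts, 680.4 to 937 FPKM in sedentary labelled knockout hearts, 600.2 to 1121 FPKM in trained wild-type hearts and 573 to 747 FPKM in sedentary wild-type hearts. Gsn, an actin-severing protein of many cell types, made up most of that sum, at a mean of 727 FPKM in trained labelled knockout hearts, 599 FPKM in sedentary labelled knockout, 689 FPKM in trained wild-type and 476 FPKM in sedentary wild-type hearts. Pdgfra, a defining fibroblast receptor, did not pass for training in labelled knockout hearts (0.44, adjusted p = 0.061). Its 4.05 to 5.39 FPKM in trained labelled knockout hearts overlapped both sedentary groups, at 2.61 to 5.33 and 2.67 to 5.29 FPKM. Trained wild-type hearts, at 3.06 to 3.99 FPKM, all lay below the trained labelled knockout hearts, beside 8.07% of all genes. Of 8 markers of activated fibroblasts 7 were higher and 0 lower, with sums of 73.4 to 359 FPKM in trained labelled knockout hearts, 23.0 to 60.2 FPKM in sedentary labelled knockout hearts, 15.0 to 38.4 FPKM in trained wild-type hearts and 12.3 to 23.9 FPKM in sedentary wild-type hearts. Postn, the matricellular protein periostin, had 54.6, 14.3, 60.9, 101 and 13.3 FPKM in trained labelled knockout hearts, 4.04, 4.99, 4.67, 7.86 and 6.01 FPKM in sedentary labelled knockout hearts, 3.52, 6.91, 3.62, 6.66 and 6.88 FPKM in trained wild-type hearts and 3.72, 4.97, 2.95, 2.58 and 3.08 FPKM in sedentary wild-type hearts. As for Lox, replicates 1, 3 and 4 of trained labelled knockout hearts were highest, and replicates 2 and 5 still lay above every other heart. All 8 macrophage markers were higher, with sums of 188 to 336 FPKM in trained labelled knockout hearts, 134 to 167 FPKM in sedentary labelled knockout hearts, 89.9 to 154 FPKM in trained wild-type hearts and 78.7 to 126 FPKM in sedentary wild-type hearts. Of 8 cardiomyocyte markers 7 were lower, with sums of 14279 to 16612 FPKM in trained labelled knockout hearts, 21032 to 24817 FPKM in sedentary labelled knockout hearts, 17747 to 23091 FPKM in trained wild-type hearts and 20846 to 26040.1 FPKM in sedentary wild-type hearts. Of 8 endothelial markers 0 passed, with sums of 222 to 276 FPKM in trained labelled knockout hearts, 211 to 285 FPKM in sedentary labelled knockout hearts, 277 to 395 FPKM in trained wild-type hearts and 277 to 338 FPKM in sedentary wild-type hearts. Of 8 epicardial markers 2 were higher, of 6 endocardial and lymphatic markers 1, and of 7 tested pericyte and smooth muscle markers 2 were higher and 1 lower, while adipocyte, atrial and Schwann cell lists gave 0. In trained labelled knockout against trained wild-type hearts 6 fibroblast, 7 activated fibroblast and 8 macrophage markers were higher, 6 cardiomyocyte and 3 endothelial markers lower, 1 atrial marker higher, and the epicardial and the pericyte lists gave 1 higher and 1 lower each. In sedentary labelled knockout against sedentary wild-type hearts, where 0 collagen chains were called, 4 macrophage, 1 activated fibroblast and 1 endocardial marker were higher, and 3 endothelial, 2 cardiomyocyte and 1 pericyte marker lower. In trained against sedentary wild-type hearts 1 endothelial and 1 epicardial marker were higher, the endocardial list gave 1 higher and 1 lower, and the fibroblast, activated fibroblast, macrophage and cardiomyocyte lists gave 0. The 6 atrial markers summed to 1485 to 5596 FPKM in trained labelled knockout hearts, 276 to 912 FPKM in sedentary labelled knockout hearts, 32.6 to 9332 FPKM in trained wild-type hearts and 45.3 to 254 FPKM in sedentary wild-type hearts. The sum did not follow Myl7 in the first of these groups. Beside sums of at least 1485 FPKM, Myl7 was only 1.76 (replicate 1), 1.27 (replicate 3) and 1.66 FPKM (replicate 4). Which markers made up these sums was not tested, so the sum alone does not show atrial tissue. The 8 epicardial markers summed to 16.3 to 40.5 FPKM in trained labelled knockout hearts, 4.26 to 13.6 FPKM in sedentary labelled knockout hearts, 5.21 to 62.5 FPKM in trained wild-type hearts and 5.81 to 7.16 FPKM in sedentary wild-type hearts. No marker of these lists was at 0 in every library of a group. The part of these cell types in the collagen differences was not tested.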

How the data were processed

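Heart RNA of 20 male mice was measured in 1 directional library per mouse after poly-A selection, all with 1 batch label. The authors deposited FPKM for 25851 genes. Tools named per the submitters' processing notes, without their roles, are DESeq2 1.20.0, featureCounts 1.5.0-p3 and HISAT2 2.0.5, with the build mm10. The FPKM values were already scaled between libraries. FPKM times GENCODE M21 exon length was a whole number of reads, within 0.01, in every library for 24957 of the 25826 genes with a gene model (96.6%), and for all collagen chains but 2. Depth in recovered reads ran between 14.2 and 30.4 M.

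Symbols and coordinates came from GENCODE M21 (GRCm38), promoter windows from RefSeq (GRCm38.p6). Values were fitted as log2(FPKM + 0.5) with limma 3.58.1 in R 4.3.3, in 1 fit over 4 groups with 16 residual degrees of freedom and eBayes with a mean-variance trend. Two-sided p-values were adjusted by Benjamini-Hochberg over 13723 genes in each of 5 comparisons, and 12128 genes below a mean of 0.5 FPKM were left out. Tables and figures used Python 3.11.15, pandas 2.3.3, numpy 2.4.6 and matplotlib 3.10.9. The fit was tested on simulated data. 0 columns belonged to no sample.

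Full values are given for the 14 chains with the smallest adjusted p and the most abundant chain of each of 8 classes, 17 chains in all. Full values of Col4a6, Col12a1 and Col18a1 were added after their values were seen. The members and lists were chosen with earlier results of these data known. Col6a4 and Col10a1 were not analysed here. Alternatives were pseudocounts of 0.1 and 1, no filter or a mean of 2 FPKM, median-ratio and TPM scaling, a block for the replicate number, robust eBayes, array weights, the compared groups alone, each library left out, libraries high in Myl7, Arntl or Upk3b left out, Myl7 or Arntl as a covariate, and voom on recovered reads.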

Additional observations from a re-analysis of the deposited data

Results flagged for a closer look

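For 13 chains the training change differed between labelled knockout and wild-type hearts by the interaction test of limma (adjusted p below 0.05). On the log2 scale the difference was 2.11 for Col3a1, 1.49 for Col1a1, 1.11 for Col1a2, 1.24 for Col5a1 and 1.52 for Col5a2. It was 0.94 for Col6a1, 1.05 for Col6a2, 1.197 for Col6a3, 1.81 for Col8a1 and 1.498 for Col8a2. It was 1.32 for Col14a1, 1.081 for Col15a1 and 0.48 for Col4a5. Without the 5 high-Arntl libraries, which leaves 1 sedentary wild-type heart, 0 were called.

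Dixon's criterion was applied to the 25 tested chains and to Col12a1, Col6a5, Col7a1 and Col4a3, selected from the 17 below the filter. In 4 of their 116 groups of 5 hearts, 3.45%, 1 heart stood apart from the others, where chance gives about 5%. Col6a5 and Col7a1, both flagged, are among the selected chains, so the share describes this set and not all chains. Col6a5, a type VI chain, was at 1.76 FPKM in trained labelled knockout replicate 1, on 526 recovered reads, against 0.0655 FPKM in the next heart of its group. Replicate 1 of the sedentary labelled knockout group, its high-Arntl library, held 7.70 FPKM of Col5a3, and the next heart 3.63 FPKM. Col4a5 was at 6.77 FPKM in sedentary wild-type replicate 5, the library of that group with low Arntl, against 7.72 FPKM in the next. Replicate 2 of the sedentary labelled knockout group held 0.164 FPKM of Col7a1, the anchoring fibril chain, and the next 0.285 FPKM.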

How the results depend on the processing

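No called value changed sign among the 4430 values of 25 chains under alternatives, of which 4295 kept their side of the threshold, 77 newly passed and 58 no longer passed. In trained against sedentary labelled knockout hearts the count of called chains was 14 (mean of at least 2 FPKM) to 21 (Myl7 covariate). Against trained wild-type hearts it was 13, with the same filter, to 20. That filter left Col27a1, Col4a4 and Col8a2, which are otherwise called, untested. With each library left out the counts of these comparisons were 16 to 18 and 15 to 18, and the interaction count 10 to 13. The interaction count was 7 with Arntl as a covariate, 19 with array weights and 0 without the high-Arntl libraries, a fit with 1 sedentary wild-type heart. For genotype in sedentary hearts the count was 2 with only the groups compared, 3 with array weights, 2 without the high-Myl7 and 4 without the high-Upk3b libraries, 1 with Myl7 as a covariate, and 0 to 1 with each library left out. Of these calls Col14a1 and Col1a2 were higher and Col5a3 and Col6a6 lower. For training in wild-type hearts it was 1 with array weights and 0 to 3 with each library left out. Replicate numbers showed no uniform pairing of the hearts, with correlations of same-numbered deviations of −0.278 to 0.484. The correlations were positive throughout for replicates 1 and 5, at 0.29 to 0.364 and 0.079 to 0.484. For replicates 2, 3 and 4 they took either sign. With the replicate block the counts were 1 for genotype at rest, 2 for training in wild-type hearts, 17, 16 and 13 otherwise. The causes were not tested. TPM scaling moved the median of all genes to 0.21, 0.24 and 0.15 for training in labelled knockout, genotype in trained hearts and the interaction. Many chains under 0.5 FPKM rest on few reads, but not all, with 2009 recovered reads over the 20 hearts for Col4a3 and 1941 for Col12a1. The 5 mice per group limit the precision.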

Other observations

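Col5a3, a type V chain, and Arntl were high in the same sedentary hearts, a relation noticed after the values were seen. Sedentary labelled knockout replicate 1 and sedentary wild-type replicates 1 to 4, the samples with Arntl above 2 FPKM, had 7.70, 8.14, 9.60, 7.74 and 10.6 FPKM of Col5a3. The other 5 sedentary hearts, 4 of them labelled knockout, had 2.30 to 3.63 FPKM. The genotype difference of Col5a3 in sedentary mice was -0.96 ± 0.36 (limma adjusted p = 0.0809). It was −0.24 without the high-Arntl samples, a fit with 1 sedentary wild-type heart that cannot decide whether the difference remains. With log2 Arntl as a covariate it was −0.09 (adjusted p = 0.923). In Arntl 1 heart of each genotype differed from its group, the labelled knockout replicate 1 at 7.70 FPKM of Col5a3 and the wild-type replicate 5 at 3.59 FPKM.

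In both genotypes the high-Myl7 samples lay above the remaining trained hearts of their group for Col4a6, Col18a1 and Col23a1 among the tested chains and for Col7a1 and Col25a1 among those below the filter. Col4a5, whose gene adjoins that of Col4a6, was at 10.04 and 10.8 FPKM in the high-Myl7 trained labelled knockout hearts and 11.2 to 12.3 FPKM in the other 3.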
